A study of Mus musculus with 6 samples.

Results

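Cry1 and Cry2 encode the cryptochromes, the proteins that close the negative feedback loop of the mammalian circadian clock. These 2 genes were chosen by name and both were present among the 9720 protein-coding genes measured in sorted mouse cones. The samples were retinal cones of adult C57BL/6 mice of mixed background, labelled postnatal day 60 to 80 and also 2 to 6 months, kept under 12 h of light and 12 h of darkness. Control cones had the genotype HRGPcre;Bmal1f/+;Z/EG and knockout cones HRGPcre;Bmal1f/f;Z/EG, with 3 libraries of each. All animals therefore carried the HRGPcre transgene and the Z/EG reporter, and the control cones, with a single floxed Bmal1 allele, are a heterozygous comparison and not an untouched wild type. HRGPcre drives Cre from the human red/green pigment promoter, which is active in cones, and eGFP-positive cells were collected by FACS after enzymatic dissociation of the neural retina. No label states how many animals went into a library or at what clock time tissue was taken. The p-values below thus measure the spread between these libraries, which may be technical, and a difference in collection time between the groups cannot be told apart from genotype.

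In the clock, a heterodimer of BMAL1 and CLOCK activates genes through E-box elements, among them the Per and Cry genes. PER and CRY proteins then assemble with casein kinase 1, enter the nucleus and repress the same heterodimer. Both cryptochromes are repressors, and of the pair CRY1 is known as the stronger. Cry1 transcription is known to be set by several kinds of element together, the E-box, the D-box and the REV-ERB and ROR response element, and its peak comes later than that of most E-box genes. Photoreceptors of the mammalian retina contain such a clock.

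Cry1 (ENSMUSG00000020038.9) lies on the minus strand of chromosome 10 from 85131700 to 85185064, and Cry2 (ENSMUSG00000068742.11) on the minus strand of chromosome 2 from 92403646 to 92434043, both on GRCm38, the assembly also called mm10. The longest annotated transcript of Cry1 has 13 exons over 3026 nt, with 1821 nt of coding sequence including the stop codon, and its first intron spans 27119 bases. That of Cry2 has 12 exons over 3976 nt, with 1779 nt of coding sequence and a first intron of 6801 bases. A further Cry2 transcript, of 11 exons over 2160 nt, also has 1779 nt of coding sequence, and its coding sequence was the one aligned here. The 2 coding sequences were 71.5% identical over 1714 aligned bases, and their longest identical run was 21 nt (tggatgtggctgtcctgcagt, bases 1189 to 1209 of the Cry1 coding sequence). No window of 50 nt was shared between transcripts of Cry1 and of any other GENCODE gene, so at the read length of 150 nt the paralogs are separable. Transcripts of Cry2 shared such windows with 14 other genes. Exons of Cry2 overlap those of D930015M05Rik, on the opposite strand, by 295 bases. No source used here states whether counting was stranded, so reads of that overlap cannot be told apart.

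The sequences just upstream of the 2 starts are shown because E-boxes are where BMAL1 acts. Each is the 250 bases before the RefSeq start (GRCm38.p6, minus strand, 5′ to 3′), at chr10:85185055-85185304 for Cry1 and chr2:92434070-92434319 for Cry2. Capitals mark matches to the E-box CACGTG and to the E′-box CACGTT, whose reverse complement is AACGTG.
Cry1: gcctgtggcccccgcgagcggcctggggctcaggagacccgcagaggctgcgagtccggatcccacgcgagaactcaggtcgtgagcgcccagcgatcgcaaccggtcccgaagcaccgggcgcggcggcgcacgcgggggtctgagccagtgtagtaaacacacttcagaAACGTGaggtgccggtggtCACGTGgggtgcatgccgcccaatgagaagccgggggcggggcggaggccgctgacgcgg
Cry2: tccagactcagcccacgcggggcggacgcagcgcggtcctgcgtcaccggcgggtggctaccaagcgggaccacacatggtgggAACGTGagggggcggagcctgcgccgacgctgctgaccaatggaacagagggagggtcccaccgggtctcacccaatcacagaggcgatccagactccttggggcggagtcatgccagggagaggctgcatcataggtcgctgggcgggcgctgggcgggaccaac
The Cry1 window held both elements, an E′-box at bases 172 to 177 and an E-box at bases 191 to 196, which leaves 54 bases between the E-box and the start. The Cry2 window held an E′-box alone, at bases 85 to 90. On either strand, the E-box was found in 6.02% and the E′-box in 3.85% of all 32851 RefSeq windows of this length. Neither window matched the D-box (TTATGTAA or TTACGTAA, 0.931% of all windows) or the core letters of REV-ERB and ROR elements (AGGTCA, 14.02% of all windows). Both windows were rich in G and C, at 71.2% for Cry1 and 68.8% for Cry2, against a median of 52.4%. Among the other 21 clock genes listed for this description, 17 had a window, and the E-box was present in those of Ciart, Bhlhe41 and Tef and in 1 of 2 windows of Per1. The E′-box was present in windows of Nr1d1 and Rorb. A letter match is a description and not evidence of binding, and nothing outside these windows, the long first intron of Cry1 included, was searched.

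Levels were deposited as FPKM, fragments per kilobase relative to library size. Comparing 1 gene with another therefore rests on the transcript lengths used, which no source used here states. The sum over the table ran from 84995 to 128773 FPKM per library and the median gene from 3.38 to 4.38 FPKM, with control 1 lowest in both. Read depth is unknown, so precision was judged from the spread between libraries. Arntl, the gene of BMAL1, read 2.9998, 2.596 and 3.27 FPKM in the 3 control libraries and 3.37, 2.28 and 3.48 FPKM in the 3 knockout libraries. A value over the whole gene does not show whether the floxed part is present, so it does not check the labels. The cone markers were in the table for 10 of 10 genes, with Arr3 averaging 707 FPKM over the 6 libraries, and their summed level was 4108 to 6923 FPKM in control and 5523 to 6666 FPKM in knockout. The 12 rod markers were also all present, at a summed 2903 to 3554 and 2372 to 3470 FPKM. Those of Müller glia (5 of 7 in the table) summed to 47.0 to 54.4 and 41.3 to 45.2 FPKM, and those of bipolar cells (6 of 8) to 45.1 to 65.3 and 50.8 to 57.2 FPKM. Amacrine markers (2 of 7) summed to 8.98 to 11.2 and 5.01 to 8.15 FPKM, ganglion cell markers (3 of 7) to 2.63 to 23.9 and 2.07 to 2.32 FPKM, and microglial markers (1 of 5) to 0.10 to 1.47 and 0.10 to 0.28 FPKM. None of 4 pigment epithelium markers was in the table. No tested marker of any of these cells passed the test used here. Apart from a fit with the rod markers as a covariate, given below, the part of other cells in the cryptochrome levels was not tested. In bulk libraries, fewer cells with a transcript and less of it per cell cannot be told apart.

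Cry1, the stronger repressor, was higher in every knockout library than in every control library. It read 4.56, 6.95 and 6.59 FPKM in control against 18.7, 14.9 and 20.5 FPKM in knockout. The lowest knockout value was 2.14 times the highest control value, and the most distant pair of libraries differed 4.49-fold. The means were 6.03 ± 1.28 FPKM in control and 18.0 ± 2.87 FPKM in knockout (SD, n = 3 each), a ratio of 2.99. In log2(FPKM + 1), a scale that compresses the changes of low genes, the difference was 1.44 ± 0.23 (SE), with 95% limits of 0.93 and 1.95. limma's moderated linear model was fitted over the 8627 genes averaging 1 FPKM or more, and the adjusted p of Cry1 was 0.042. The call was lost in 7 of 16 alternatives, with adjusted p-values of up to 0.23 in limma. Cry1 was the last of the 9 genes under the threshold of 0.05, which is 0.104% of those tested, and 1 of 4 called higher (0.0464%). Groups without overlap and higher in knockout were found for 3.52% of tested genes.

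**Figure D1:**
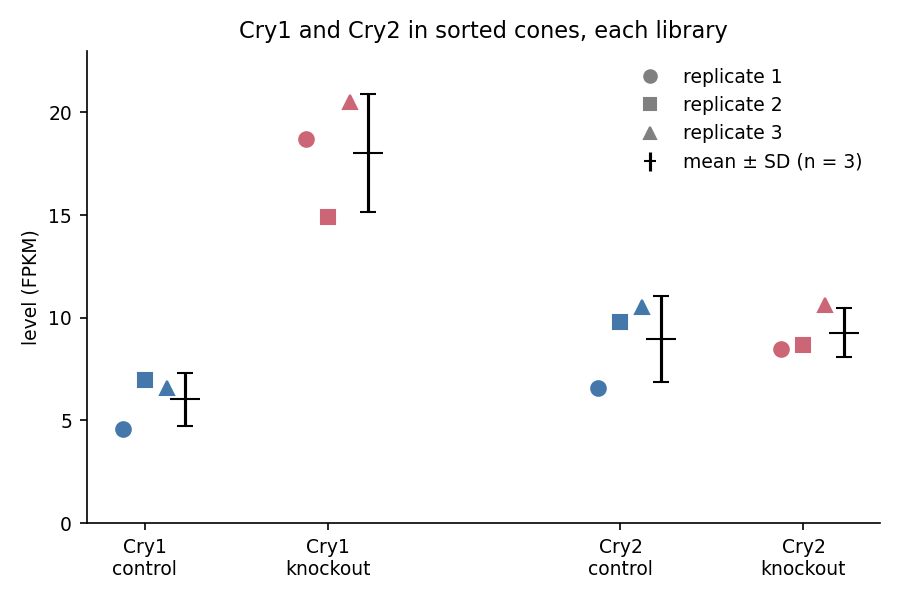
Level of Cry1 and Cry2 in FPKM (vertical axis) in each library of control (blue) and knockout (red) cones; the marker shape gives the replicate and the black bar the mean ± SD of 3 libraries. The Cry1 groups are apart, at 4.56 to 6.95 against 14.9 to 20.5 FPKM, whereas the Cry2 groups overlap.

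Cry2, the other cryptochrome, overlapped between the groups. It read 6.60, 9.80 and 10.5 FPKM in control against 8.49, 8.70 and 10.6 FPKM in knockout, so that the highest and the lowest of the 6 values were 1.61-fold apart. The means were 8.97 ± 2.08 and 9.28 ± 1.19 FPKM (SD, n = 3 each). The log2 difference was 0.06 ± 0.23 (SE) (95% interval -0.45 to 0.57; adjusted p = 0.9996 in limma). The interval does not reach the difference measured for Cry1, and its sign turned with array weights and without control 1 or knockout 3. The point for Cry2 thus lies within the bulk of the table, at place 6903 of 8627 by size of difference, while Cry1 held place 24 by size and place 11 among increases.

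**Figure D2:**
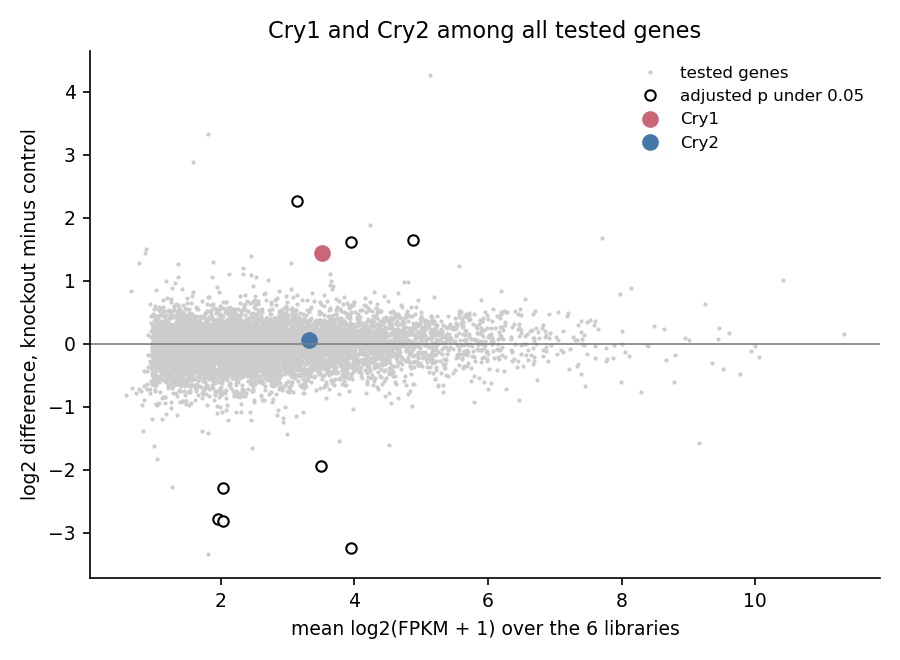
Difference between knockout and control (vertical axis, log2(FPKM + 1)) against mean level (horizontal axis, log2(FPKM + 1)) for the 8627 tested genes (grey), with the 9 genes under an adjusted p of 0.05 as open or coloured circles. Cry1 (red, 1.44) stands above the cloud and Cry2 (blue, 0.06) sits inside it.

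The position of Cry1 among expressed genes moved accordingly. In control libraries it exceeded 59.9%, 69.1% and 62.9% of the genes in the table, and in knockout libraries 89.5%, 86.5% and 90.5%. For Cry2 these shares were 70.8%, 77.8% and 76.2% in control and 75.1%, 76.1% and 79.3% in knockout. Divided by the median gene of the same library, Cry1 rested at 1.35, 1.87 and 1.51 in control and reached 5.30, 4.21 and 5.29 in knockout. Control 1 held the lowest value of both cryptochromes, and this division brought it closer to the other controls without closing the gap between groups.

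The balance between the paralogs, as read in FPKM, was opposite in the 2 groups. Cry2 exceeded Cry1 in 3 of 3 control libraries, where the ratio of Cry1 to Cry2 was 0.691, 0.709 and 0.627. Cry1 exceeded Cry2 in 3 of 3 knockout libraries, with ratios of 2.204, 1.71 and 1.93. A ratio within a library does not depend on how the library was scaled. Which gene exceeds the other does depend on the transcript length used for each, which no source used here states. Annotated Cry2 transcripts with the same coding length run to 3976 and 2160 nt. The difference between groups does not depend on these lengths if they were the same in every library. The log2 mean of the ratio went from -0.57 ± 0.09 to 0.95 ± 0.18 (SD, n = 3 each), a difference of 1.52 ± 0.12 (SE), or 2.87-fold. A two-sided exact permutation test gave p = 0.1, the smallest value that 3 against 3 libraries allow. Within the control group the ratio was tighter than either gene alone, with an SD of 0.043 on a mean of 0.676, whereas the SDs of Cry1 and Cry2 were 21.3% and 23.2% of their means. Within the knockout group the ratio had an SD of 0.246 on a mean of 1.95. The SDs of Cry1 and Cry2 there were 15.9% and 12.8% of their means. Both genes had their lowest value in control 1.

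**Figure D3:**
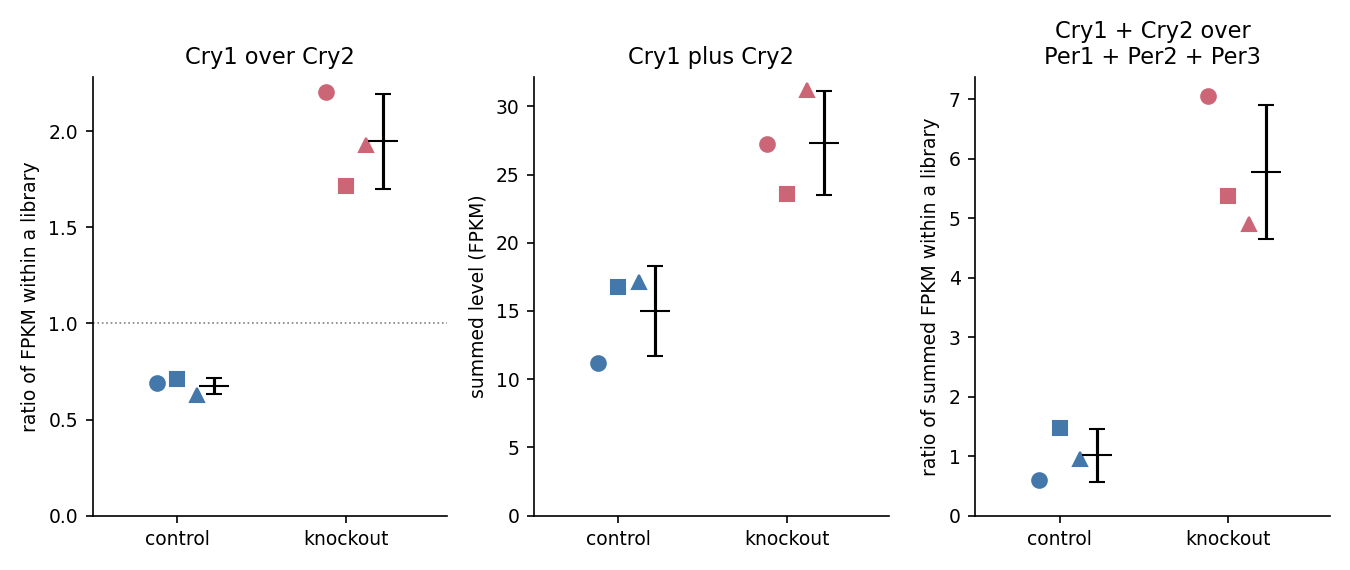
Cry1 over Cry2 (left, ratio of FPKM, dotted line at equality), their summed level in FPKM (middle), and that sum over the summed level of the Per genes (right) in each library of control (blue) and knockout (red), with mean ± SD of 3 libraries beside the points. The groups are apart in all 3 panels, and the left ratio is under 1 in every control library and over 1 in every knockout library.

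Summed over both genes, cryptochrome transcript was 11.2, 16.7 and 17.1 FPKM in control against 27.2, 23.6 and 31.2 FPKM in knockout. Cry1 made up 40.3 ± 1.54% of this sum in control and 65.9 ± 2.83% in knockout (SD, n = 3 each). These shares too depend on the transcript lengths used. The rise of the sum, from a mean of 15.0 to 27.3 FPKM, therefore came with little movement of Cry2. Arntl and Clock, the genes of the heterodimer that cryptochromes repress, together averaged 8.42 ± 1.52 and 9.18 ± 1.16 FPKM, and these groups overlapped. Cryptochrome transcript over this pair was 1.42, 2.31 and 1.69 in control and 2.79, 3.003 and 3.13 in knockout. The Arntl value covers the whole gene and does not show whether the floxed part is present. Neither the sum of Arntl and Clock nor this ratio therefore measures the heterodimer in knockout cones.

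The Per genes encode the partners with which cryptochromes enter the nucleus. Per1, Per2 and Per3 together read 18.5, 11.3 and 17.8 FPKM in control against 3.86, 4.39 and 6.37 FPKM in knockout. The ratio of summed Cry to summed Per transcript was 0.603, 1.48 and 0.959 in control and 7.05, 5.38 and 4.89 in knockout, so the means of 1.01 ± 0.44 and 5.77 ± 1.13 differed 5.70-fold. Most of the fall in the Per sum lay in Per3, whose mean went from 10.1 ± 2.59 to 0.559 ± 0.207 FPKM. Against the other period genes alone the groups were apart as well, although Per1 and Per2 themselves each overlapped between the groups. Cry1 over Per1 was 1.07, 2.15 and 1.62 in control and 10.6, 5.49 and 5.39 in knockout. Cry1 over Per2 was 1.55, 7.17 and 3.53 in control and 12.8, 11.0 and 11.1 in knockout, with the wide control range following Per2, which read 2.94, 0.969 and 1.87 FPKM.

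Of the 6 listed members of the PER and CRY repressor complex beside the cryptochromes, 6 were tested, 1 fell and none rose. The fall was that of Per3 (log2 difference -2.81, adjusted p = 0.00023 in limma, lower in 3 of 3 knockout libraries than in any control library). Over all tested genes, 0.058% were called lower. Csnk1d and Csnk1e, the casein kinase 1 genes whose products phosphorylate PER, measured 9.39 ± 3.34 and 11.7 ± 2.34 FPKM in control against 7.07 ± 1.02 and 9.32 ± 1.25 FPKM in knockout. Per1 measured 3.85 ± 0.55 and 2.76 ± 1.02 FPKM and Per2 1.92 ± 0.99 and 1.55 ± 0.26 FPKM in control and knockout. Ciart, a further repressor of the heterodimer, measured 1.54 ± 1.02 and 1.62 ± 0.18 FPKM. These 5 genes had adjusted p-values of 0.93 or more in limma. The median log2 difference over the list was -0.31, against -0.02 over all tested genes.

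The listed regulators of Cry1 transcription held 2 called genes of 8 tested, both lower, beside 0.058% called lower over all tested genes. The 2 were Nr1d1 and Nr1d2, which encode REV-ERB alpha and beta, repressors that act at the REV-ERB and ROR response element. Nr1d1 read 38.3, 47.1 and 56.3 FPKM in control against 2.87, 4.62 and 4.91 FPKM in knockout (log2 difference -3.24, adjusted p = 0.00013 in limma). Nr1d2 read 8.38, 6.73 and 9.40 FPKM in control against 0.822, 0.882 and 0.877 FPKM in knockout (log2 difference -2.29, adjusted p = 0.00030 in limma). The ratio of Cry1 to Nr1d1 was 0.119, 0.148 and 0.117 in control and 6.53, 3.22 and 4.18 in knockout. Cry1 and both REV-ERB transcripts each had groups apart, in opposite directions, so this shift follows from those differences. A link between these genes within a group was not tested.

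Rora and Rorb encode the activators that compete with REV-ERB for that element, and neither passed. Rora read 19.8, 23.04 and 28.5 FPKM in control against 31.8, 31.0 and 29.2 FPKM in knockout, with narrowly separate ranges (log2 difference 0.37, adjusted p = 0.93 in limma). Rorb measured 10.2 ± 2.34 and 11.5 ± 1.64 FPKM. Of the factors that bind D-boxes, Tef, an activator, read 50.7, 34.1 and 37.5 FPKM in control against 16.7, 20.1 and 22.8 FPKM in knockout (log2 difference -0.99, adjusted p = 0.31 in limma). Hlf, a further activator, measured 4.09 ± 0.75 and 2.66 ± 0.38 FPKM (adjusted p = 0.90 in limma). Nfil3, the D-box repressor, read 1.01, 2.47 and 2.82 FPKM in control against 5.97, 4.84 and 5.55 FPKM in knockout (log2 difference 1.11, adjusted p = 0.27 in limma). The ranges of Tef, Hlf and Nfil3 were apart between groups, but none of the 3 passed. Bhlhe41, which encodes the E-box repressor DEC2, measured 6.53 ± 1.49 and 4.73 ± 0.43 FPKM (adjusted p = 0.92 in limma), also without overlap. In all, 7 of the 8 tested regulators had groups apart, 2 higher and 5 lower. Groups were apart for 9.39% of all tested genes, 3.52% higher and 5.87% lower. The list was drawn up with earlier results of these data known, so its count is a description. Dbp, at a mean of 0.724 FPKM in control and 0.199 FPKM in knockout, and Arntl2, at 1.27 and 0.668 FPKM, lay under the filter and were not tested. Npas2 and Bhlhe40 were not analysed here.

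**Figure D4:**
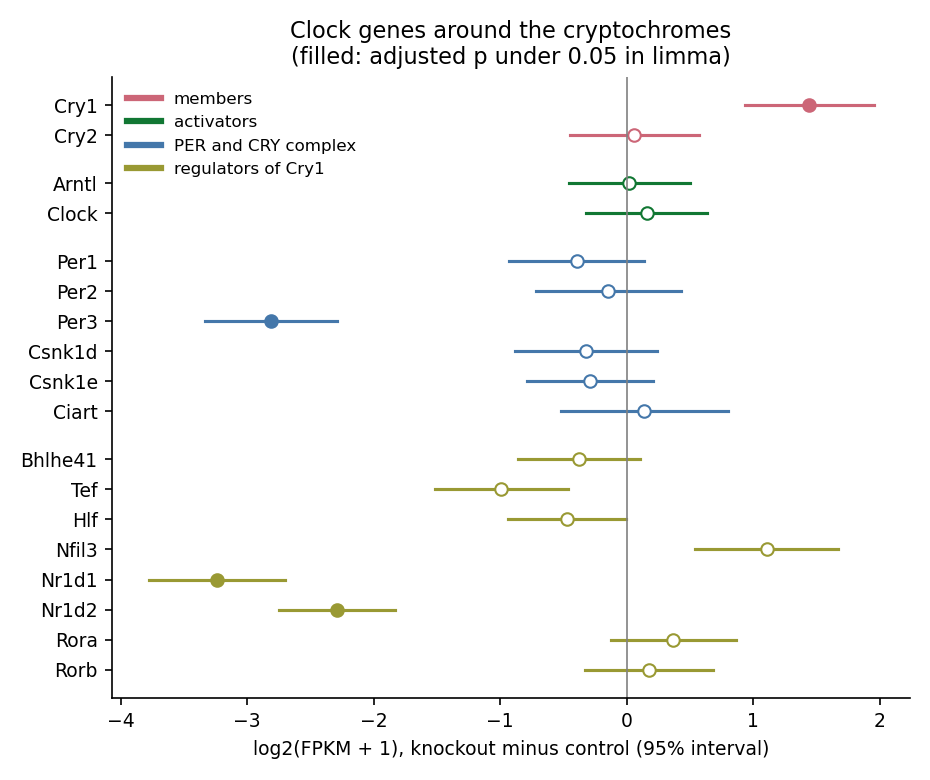
Difference between knockout and control in log2(FPKM + 1) (horizontal axis; line, 95% interval; filled point, adjusted p under 0.05 in limma) for the cryptochromes, the tested activators, the tested PER and CRY complex members and the tested regulators of Cry1. Cry1 is the filled point to the right of 0, and Per3, Nr1d1 and Nr1d2 are the filled points to the left.

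Ranked by mean FPKM among the 20 clock genes of these lists that were in the table, members included, Cry2 stood at place 8 and Cry1 at place 11 in control cones. From place 4 to place 20 of that order, each gene's range overlapped that of the next, so these neighbours do not differ beyond their spread. In knockout cones Cry1 stood at place 3, after Rora and Tef, and Cry2 at place 6. The range of Cry1 there overlapped that of Tef and was apart from that of Rorb, the next gene down. The range of Cry2 overlapped that of Csnk1e, the gene above, and was apart from that of Csnk1d, the gene below.

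Genes that set the stability of cryptochrome protein did not pass. Among 9 tested genes of ubiquitin ligases and deubiquitinases the log2 differences lay between -0.28 and 0.15, and 0 of the 9 had groups apart, beside 9.39% of all tested genes. The smallest p in that list belonged to Fbxw11, which encodes a ligase subunit that acts on PER proteins, at 6.59 ± 3.53 and 4.90 ± 0.68 FPKM. The most abundant member was Cul4a, a cullin of the ligase assembled on DDB1, at 35.0 ± 4.52 and 36.5 ± 11.3 FPKM. Of the 8 kinase genes tested, which hold the AMPK subunits, Gsk3b and Dyrk1a, none was called. Gsk3b, the most abundant, measured 22.8 ± 5.10 and 24.7 ± 2.88 FPKM, and Prkag2, an AMPK subunit gene with the smallest p, 1.23 ± 1.20 and 1.97 ± 0.33 FPKM. None of 11 corepressor and coactivator genes passed. Ncor1, the corepressor through which REV-ERB acts, measured 62.2 ± 5.92 and 74.6 ± 11.4 FPKM. Sin3a, a scaffold of histone deacetylases, had the smallest p of that list at 16.5 ± 1.88 and 22.2 ± 2.90 FPKM (adjusted p = 0.91 in limma), and its groups were apart. Over these 3 lists the smallest adjusted p was 0.909 in limma, and no member reached an unadjusted p under 0.05. The median log2 differences were 0.07, 0.07 and -0.03. In all, 44 genes of the 6 lists were tested, 3 were called lower and none higher, beside 0.058% and 0.0464% of all tested genes. The signs were 22 positive and 22 negative, beside 47.4% positive over all tested genes.

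The genes nearest to the cryptochromes on their chromosomes were read for comparison. Mterf2, 3672 bases from Cry1, averaged 0.862 and 0.722 FPKM and lay under the filter. Pwp1, the next gene of the table on the other side at 644429 bases, measured 2.50 ± 0.62 and 2.67 ± 0.33 FPKM. Around Cry2, Mapk8ip1 at 2382 bases measured 2.16 ± 0.74 and 1.57 ± 0.495 FPKM, and Slc35c1 at 18720 bases 1.16 ± 0.085 and 1.6004 ± 0.48 FPKM. None of the 3 tested neighbours passed (adjusted p of 0.97 or more in limma), and no neighbour of Cry1 shared its separation of the groups.

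Likeness of profile was measured as the root mean square difference of log2(FPKM + 1), centred on each gene, over the 6 libraries, and describes these libraries without a test. The 5 genes nearest to Cry1 among those tested were Fabp7, Dnah9, Nfil3, Opn1sw and Loxl4, at distances of 0.14, 0.22, 0.23, 0.27 and 0.30. Fabp7, which encodes a fatty acid binding protein, read 21.9, 33.1 and 37.0 FPKM in control against 77.2, 63.8 and 76.2 FPKM in knockout (adjusted p = 0.20 in limma). It also lies on chromosome 10, from 57784881 to 57788450. Dnah9, an axonemal dynein gene, measured 7.90 ± 1.53 and 26.1 ± 1.27 FPKM (log2 difference 1.62, adjusted p = 0.0084 in limma, higher in 3 of 3 knockout libraries). Its call was lost in 5 alternatives, among them without control 2 (adjusted p = 0.11 in limma) and without any 1 of the 3 knockout libraries (0.051 to 0.056). Of the 5, Nfil3 alone belongs to the clock lists. Opn1sw, the short-wavelength cone opsin gene, measured 981 ± 235 and 1947 ± 160 FPKM, and Loxl4, a lysyl oxidase gene, 0.679 ± 0.231 and 3.06 ± 0.895 FPKM, and neither passed. Cry2 was at a distance of 0.70 from Cry1, at place 2107. The 3 genes nearest to Cry2 were Socs5, a suppressor of cytokine signalling, Spcs3, a signal peptidase subunit, and BC005624, at distances of 0.02, 0.04 and 0.04. Having been chosen by likeness over the same 6 libraries, all 3 shared with Cry2 their lowest value in control 1 and overlapping groups. Socs5, the nearest, read 5.37, 7.83 and 8.60 FPKM in control against 6.63, 7.19 and 8.74 FPKM in knockout.

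The call of Cry1 stood close to the threshold although its direction held in each of 16 alternatives, with log2 differences from 1.28 to 1.597. Its adjusted p in limma was 0.056 with a pseudocount of 0.1 FPKM. With the mean level of the rod markers as a covariate, the Cry1 difference was 1.40 (adjusted p = 0.036 in limma). The Cry2 difference in that fit was 0.011 (adjusted p = 0.996 in limma). The 7 alternatives that ended the call are open points in the plot of Cry1 by way of processing. Leaving out a library ended the call in 5 of 6 fits, with adjusted p-values of 0.15 and 0.20 without controls 2 and 3 and of 0.17, 0.076 and 0.19 without knockouts 1, 2 and 3, while without control 1 it was 0.025. The highest unadjusted p of Cry1 over these alternatives was 0.00033.

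**Figure D5:**
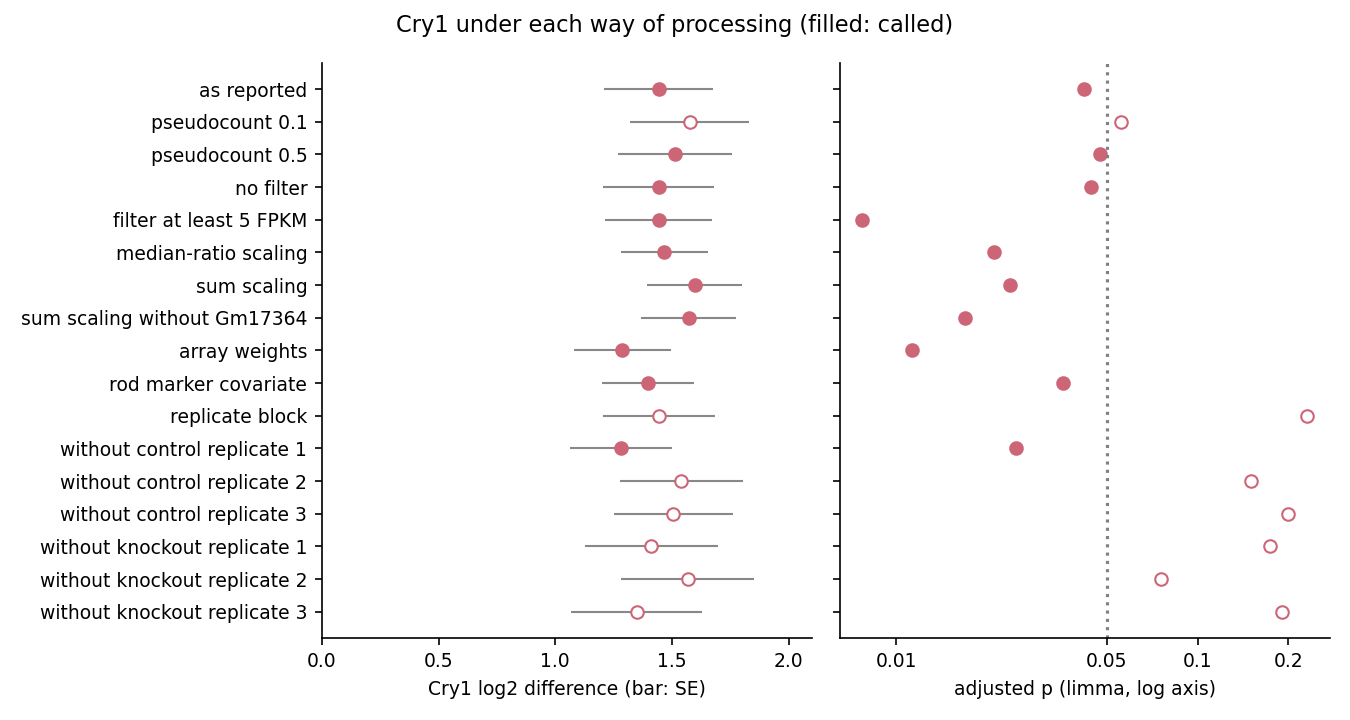
Cry1 difference between knockout and control in log2(FPKM + 1) with its SE (left) and adjusted p in limma on a log axis (right, dotted line at 0.05) as reported and in 16 alternatives; filled points are under 0.05. The differences stay between 1.28 and 1.597, whereas the adjusted p runs from 0.0077 to 0.23.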

How the data were processed

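Poly(A) RNA of 6 libraries, each from 100 ng of RNA, was sequenced as paired reads of 150 nt, per the labels' protocols. The authors deposited FPKM values with a column for each library. Per the submitters' processing notes, the build was mm10 and the tools were HTSeq, DESeq2, Cufflinks (2.2.1) and TopHat2 (2.1.0), whose roles, like the annotation and the fragments counted in the scaling, no source used here states. No deposited FPKM is under 0.1, so 0.1 acts as a floor, and depth is unknown.

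Groups came from genotype labels and replicate numbers from titles. Of 9720 genes, 9702 matched GENCODE vM21 (GRCm38). From the FPKM, log2(FPKM + 1) was computed, genes averaging 1 FPKM or more were kept (8627 tested, 1093 below), and knockout was set against control by limma (version 3.58.1, R version 4.3.3; trended eBayes, two-sided, all 6 libraries, Benjamini-Hochberg over all tested genes, threshold 0.05). The fit was also run on simulated data with independent normal noise and no effect shared within a library, and no outcome of that run is used here. The Cry1 to Cry2 ratio was tested by exact permutation with scipy 1.17.1. Coding sequences were aligned with Biopython 1.88, and promoter windows are RefSeq's.

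The genes named are Cry1 and Cry2, each gene in the table of the complex, activator and regulator lists, and from each other list its called members, the smallest p and the highest level. The nearest gene of the table on each side, the 5 profiles nearest to Cry1 and the 3 nearest to Cry2 are also named. Members and lists were chosen with earlier results of these data known. Alternatives changed the pseudocount (0.1, 0.5), the filter (none, 5 FPKM), the scaling of libraries, or added array weights, a rod covariate or a replicate block, or left out each library, with the filter reapplied.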

Additional observations from a re-analysis of the deposited data

How the results depend on the processing

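Depth is unknown, so limits come from 3 libraries per group. The log2 difference of Cry1 was 1.57 with a pseudocount of 0.1 (adjusted p = 0.056, limma) and ran from 1.28 to 1.57 with a library left out. With the replicate number as a block it was 1.44 (adjusted p = 0.23, limma, 6 genes called). The deviations of same-numbered libraries correlated at -0.12, -0.09 and -0.03, and no library correlated best with its own number. These values show no pairing by number, but they cannot decide whether same-numbered libraries were collected together. Array weights gave 23 called genes against 9, and leaving out a library 6 to 13. Gm17364 read 428, 2616 and 12911 FPKM in controls 1, 2 and 3 and 2516 to 2935 FPKM in knockout, so it weighs unequally in the library sums. Rescaling to equal sums while leaving out Gm17364, chosen after seeing the data, kept the call of Cry1 (1.57, adjusted p = 0.017, limma). The Cry1 to Cry2 difference ran from 1.43 to 1.61 with a library left out, where the exact p cannot go below 0.2. With array weights the sign turned for Cry2 (-0.052), Per2 (0.12), Ciart (-0.13), Socs5 (-0.039) and BC005624 (-0.0026), and with the rod covariate for Arntl (-0.0025) and Cul4a (-0.033). With a library left out, values crossed 0 for Cry2 (-0.12 to 0.18), Per2 (-0.40 to 0.098), Ciart (-0.26 to 0.37), Arntl (-0.059 to 0.17), Fbxw11 (-0.50 to 0.080), Cul4a (-0.16 to 0.29), Gsk3b (-0.048 to 0.27), Pwp1 (-0.025 to 0.22), Socs5 (-0.12 to 0.18), Spcs3 (-0.087 to 0.24) and BC005624 (-0.079 to 0.21). None of these 11 genes passed in any alternative run; the cause of the turns was not tested. The 3 list genes called, Per3, Nr1d1 and Nr1d2, were called in every alternative in which they were tested. Dnah9 lost its call in 5 alternatives, and Fabp7 and Loxl4 passed in 3 and 2.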
